A study of Mus musculus with 4 samples.

Results

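The 6 genes Kcnip3, Tex35, Tm4sf5, Pnkd, Aoc1 and Dscam gave low signals in wild-type regulatory T (Treg) cells and far higher ones in Treg cells without CYLD. They are 6 of 19938 genes measured with at least 1 probe set of a single gene symbol, and each is represented by its probe set with the highest mean over the 4 arrays. They were chosen on these same intensities, as named genes near background in wild type and raised on both knockout arrays, so their levels and fold changes are a description with no test. Treg cells, a Foxp3-dependent subset of CD4 T cells, hold immune responses in check. CYLD takes lysine-63-linked and linear ubiquitin chains off signalling proteins and so limits NF-kB activation. The genotype was Cyld+/+ with Foxp3-yfp-cre in the wild-type group and Cyld fl/fl with Foxp3-yfp-cre in the knockout group, 2 arrays each, all on a C57Bl6 background and aged 6 to 8 weeks. Both groups carried the Cre recombinase and yellow fluorescent protein (YFP) expressed from Foxp3, so Cyld was removed only where Foxp3 is or was active. The YFP-positive cells were flow-sorted from spleen, and in other labels from spleen and lymph nodes. Total RNA was measured on Affymetrix gene arrays, with 1 intensity per probe set and array on a linear scale.

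None of the 6 genes is commonly used as a marker of T cells. Kcnip3 encodes a calcium-binding protein with 3 established names: KChIP3, which modulates Kv4 potassium channels, calsenilin, which binds presenilins, and DREAM, a transcriptional repressor whose binding to DNA is released by calcium. Dscam is an immunoglobulin-superfamily adhesion molecule of neurons that also acts as a netrin receptor. Pnkd, a protein with a metallo-beta-lactamase fold, is named after the movement disorder paroxysmal nonkinesigenic dyskinesia, which its mutations cause. Aoc1 is diamine oxidase, the secreted enzyme that degrades histamine and putrescine and is abundant in intestine, kidney and placenta. Tm4sf5 is a membrane protein with 4 transmembrane segments of the L6 family, known from liver, gut and epithelial tumours. Tex35 is named for its expression in testis, and its function is little known.

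Defining genes of the labelled cells were bright. All 10 Treg and T cell markers on the list used, among them Foxp3, Il2ra and Cd4, read above the 95th percentile of the background reference described below on each array. With limma 0 of the 10 passed in either direction, against 4.79% of all 13956 genes tested higher and 3.50% lower. At an unadjusted p under 0.05 there were 2, both lower. In a list this short, 0 calls do not show that the markers were unchanged. Cyld read 524 and 502 in wild type, against 284 and 218 in the knockout. Array medians lay between 99.0 and 105. Precision is limited by there being 2 arrays per group, and the labels do not tie replicates to separate mice. From the labels alone, the spread between replicates cannot be called biological or technical. Knockout replicate 2 stood apart from replicate 1. The summed intensity of 9 proliferation genes was 3378 and 3187 in wild type, 4856 on knockout replicate 1 and 7822 on replicate 2. Y-linked Kdm5d read 271 and 275 in wild type, 268 on knockout replicate 1 and 127 on replicate 2. On knockout replicates 1 and 2, Y-linked Eif2s3y read 221 and 98.9 and Uty 283 and 132. X-linked Xist went the other way, at 1630 and 2321, against 1306 and 1403 in wild type. The knockout arrays thus differed in sex-linked genes too, and what lies behind this was not tested.

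To show how near to background the 6 genes read, 1278 genes with no known role in T cells were used as a reference: olfactory and vomeronasal receptors, keratin-associated proteins and beta-defensins. On the 4 arrays their median intensity was 56.2 to 58.3, and 95% of them were below 114 to 127. The 6 genes fall into a pair of kinds on this scale. Kcnip3, Tex35 and Aoc1 lay in the bulk of the reference in wild type, with means above 67.6%, 65.6% and 57.1% of it. Tm4sf5, Pnkd and Dscam lay at its upper edge, above 96.2%, 95.5% and 95.1% of it, and above 56.9%, 54.9% and 52.9% of all genes. Near-silent therefore describes the first group better than the second. In the knockout all 6 were above the reference's 95th percentile on both arrays, and 5 of them above its highest gene, which Aoc1 was not. Among the 266 reference genes bright enough to test, 0 were higher and 0 lower with limma, against 4.79% and 3.50% of all genes tested. At an unadjusted p under 0.05 there were 0 in each direction, and the largest upward log2 difference over all 1278 was 0.38. Because the variance was pooled over all genes, a call depends on size, and the smallest fold called in any gene was 1.40. The zeros therefore say only that these differences were small, and they do not measure the reference genes' own spread.

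**Figure D1:**
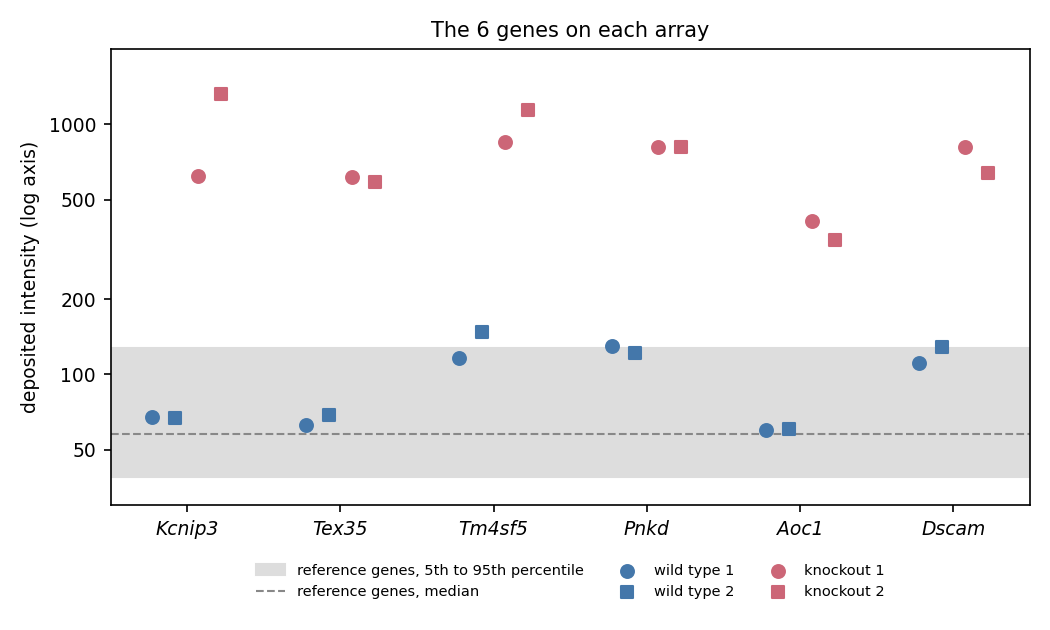
Deposited intensity (log axis) of the 6 genes on each array, blue for wild type and red for knockout, circles for replicate 1 and squares for replicate 2. The grey band runs from the lowest 5th to the highest 95th percentile of the 1278 reference genes over the 4 arrays and the dashed line marks their median; every knockout point, from 346 up to 1326, lies above the band and above the highest wild-type point, 148.

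Sequence upstream of the start sites is shown for 3 of the genes. The 6 were chosen for the same direction of difference, so that direction is no reason to look for shared letters, and the sequences are given as a description. The windows are the 250 bases before an annotated start, 5′ to 3′ on the gene's strand, from RefSeq on GRCm38.p6. Windows were listed for all 6 genes, 11 in all. Several motifs were searched on both strands: the kappa B consensus bound by NF-kB, AP-1 (TGANTCA), the cAMP response element (TGACGTCA), Runx (TGTGGT), forkhead (GTAAACA) and the TATA box (TATAAA). Capitals mark a match. Kcnip3 is shown as the gene with the largest difference (chr2:127522095-127522344, minus strand), Aoc1 because its second listed window (chr6:48904736-48904985, plus strand) holds the same AP-1 word as Kcnip3, and Pnkd because the position of its listed start bears on its probe sets (chr1:74332360-74332609, plus strand).
Kcnip3: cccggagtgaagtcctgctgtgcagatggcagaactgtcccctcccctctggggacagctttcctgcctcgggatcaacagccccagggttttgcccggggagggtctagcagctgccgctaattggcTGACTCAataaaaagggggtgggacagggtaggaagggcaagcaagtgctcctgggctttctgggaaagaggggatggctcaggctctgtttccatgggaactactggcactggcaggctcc
Aoc1: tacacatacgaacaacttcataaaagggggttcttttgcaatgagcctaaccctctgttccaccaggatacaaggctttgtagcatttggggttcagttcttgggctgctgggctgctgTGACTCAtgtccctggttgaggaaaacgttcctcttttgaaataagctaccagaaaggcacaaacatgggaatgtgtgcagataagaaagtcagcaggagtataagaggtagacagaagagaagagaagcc
Pnkd: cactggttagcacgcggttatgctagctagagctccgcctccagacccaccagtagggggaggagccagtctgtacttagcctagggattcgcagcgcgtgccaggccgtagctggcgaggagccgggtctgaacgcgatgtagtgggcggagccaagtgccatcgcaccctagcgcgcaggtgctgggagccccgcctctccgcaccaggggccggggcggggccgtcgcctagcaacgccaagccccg
The word TGACTCA stood 122 to 116 bases before the start of the Kcnip3 window shown and 131 to 125 bases before that of the Aoc1 window shown. The Kcnip3 window is the first of 3 listed and the Aoc1 window the second of 2. The other listed windows of both genes held no match to any of the motifs. AP-1 matched in 6.75% of all 32851 windows of this length. The kappa B consensus matched in 3.90% of all windows and in none of the 11 listed for the 6 genes, and the other motifs matched in none of the 11 either (1.55% of all windows for the cAMP response element, 14.05% for Runx, 3.17% for forkhead and 12.4% for the TATA box). A match is a description of letters, and a missing match says only that these letters are not in these windows. The Pnkd and Dscam windows were rich in G and C (68.4% and 68.0%) and held 23 and 21 CpG dinucleotides, against medians of 52.4% and 6 over all windows, whereas the Kcnip3 and Aoc1 windows shown held 4 and 2 (another Kcnip3 window, not shown, held 23).

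Kcnip3 differed most of all genes tested. It read 67.8 and 66.7 on the wild-type arrays, against 624 and 1326 on the knockout arrays, 67.2 ± 0.752 against 975 ± 497 (mean ± SD, n = 2 per group). The groups did not overlap, but one knockout array read 2.12 times the other. The log2 fold change, on the log2(intensity + 1) scale used throughout, was 3.74, and single pairs of a knockout and a wild-type array gave folds from 9.09 to 19.6. The standard error was 0.17 for each gene, because limma's variance was pooled over all genes, and it does not reflect the gap between the Kcnip3 arrays.

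Tex35, the testis-named gene, was the third largest rise and far more even. It read 62.9 and 68.9 in wild type, against 617 and 590 in the knockout, a log2 fold change of 3.18. Pairs of arrays gave folds from 8.46 to 9.68.

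Tm4sf5, the L6-family membrane protein, read 117 and 148 in wild type, against 852 and 1142 in the knockout (log2 fold change 2.90). It was the brightest of the 6 in both groups, with means of 132 ± 22.2 and 997 ± 205, and replicate 2 was the higher array in both. Dscam, the neuronal adhesion molecule, read 111 and 129 in wild type, against 811 and 642 in the knockout (log2 fold change 2.59). Its replicates differed in opposite directions in the groups, which did not overlap.

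Aoc1, the diamine oxidase gene, was the dimmest in both groups. It read 60.0 and 60.4 in wild type, close to the reference median, and 410 and 346 in the knockout, a log2 fold change of 2.62. Its knockout mean exceeded 84.8% of all genes, whereas those of the other 5 exceeded 91.5% to 96.3%.

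Pnkd was represented by 2 probe sets, which disagreed. The one kept by the rule read 129 and 121 in wild type, against 816 and 815 in the knockout, a log2 fold change of 2.69. The other read 231 and 199 in wild type, against 199 and 227 in the knockout, a log2 fold change of -0.01, with overlapping groups. The kept probe set had the higher mean over the 4 arrays only through its knockout values. In wild type it was the dimmer of the 2, with a mean of 125 against 215. The platform annotation lists 5 transcript records under both probe sets, 1 only under the first (the RefSeq transcript NM_019999) and 4 only under the second, among them NM_025580. Pnkd is known to have long and short isoforms, the long one found mainly in brain. At 215 ± 22.6 the wild-type mean of the second probe set exceeded 99.1% of the reference genes, so the gene as a whole was not near background in wild type and the difference between the groups was measured by 1 of its 2 probe sets. Averaging both gave a log2 fold change of 1.34. The single start listed for Pnkd, whose upstream sequence is shown above, lies within the gene's annotated span and not at its outer end. Which probe set reads transcripts from that start was not tested, since probe positions were not used here. The other 5 genes had 1 probe set each.

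**Figure D2:**
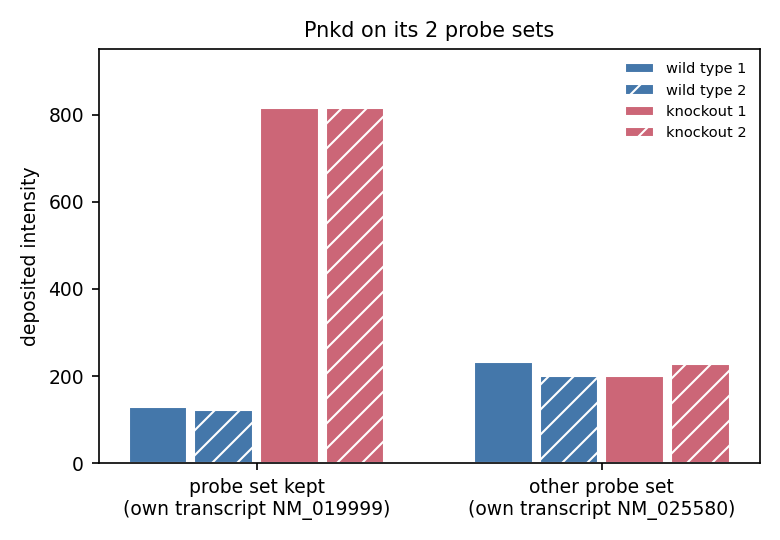
Deposited intensity of the 2 Pnkd probe sets on each array, blue for wild type and red for knockout, hatched for replicate 2. The kept probe set read 121 to 129 in wild type, against 815 to 816 in the knockout, whereas the other read 199 to 231 on all 4 arrays.

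The 6 genes differed widely in how well the knockout arrays matched. Over the 13956 genes tested, the gap between the knockout replicates had a median size of 0.19 and a 95th percentile of 0.51 on the log2 scale, against 0.14 and 0.40 between the wild-type replicates. The Kcnip3 gap was 1.09, and 3 genes had a larger one. Those were the Y-linked Eif2s3y and Uty, lower on knockout replicate 2, and the mitotic kinase gene Aurkb, higher on it. The wild-type gap of Kcnip3 was 0.02 in size, larger than that of 8.93% of genes. Tm4sf5 was also higher on replicate 2, by 0.42, more than 89.0% of genes. Dscam, Aoc1 and Tex35 were lower on replicate 2, by log2 differences of -0.34, -0.25 and -0.06. Pnkd was level to within 0.0899% (coefficient of variation). The replicate with more proliferation transcripts and less Kdm5d thus read higher for Kcnip3 and Tm4sf5 and not for the other 4; the part of those differences in the gaps was not tested.

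**Figure D3:**
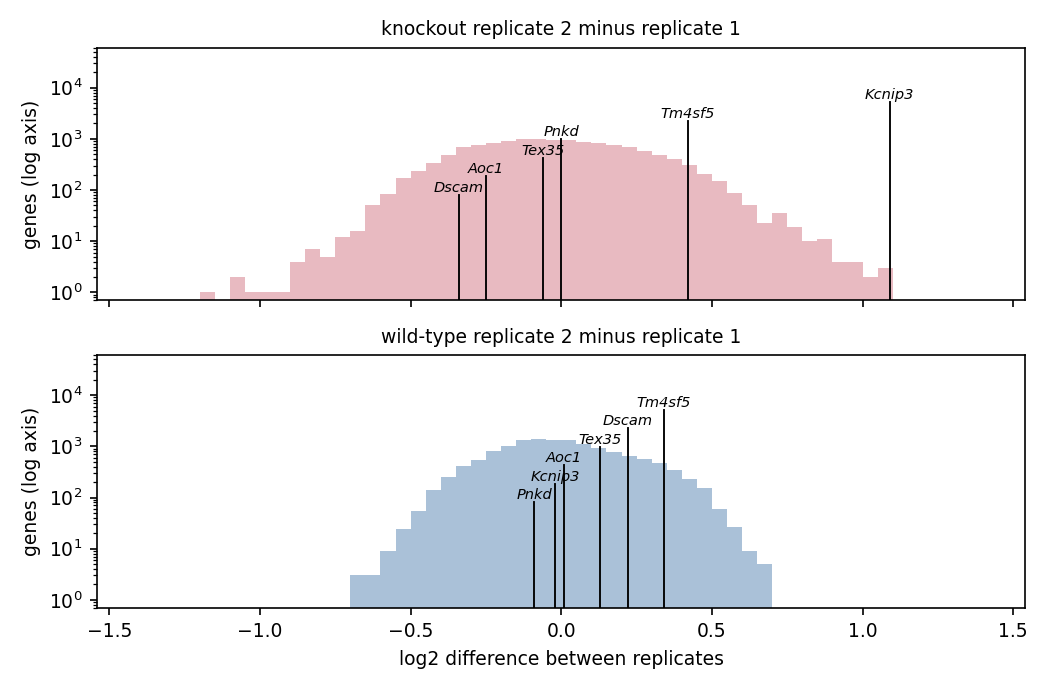
Histograms of the log2 difference between replicates for the 13956 genes tested, knockout above and wild type below (genes per bin on a log axis). Vertical lines mark the 6 genes at heights that carry no value; Kcnip3 lies at 1.09 in the knockout, at the edge of the distribution, and at -0.02 in wild type.

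All 6 genes passed the filter on low values, a mean log2 value above 6.29 over the 4 arrays, but Kcnip3, Tex35 and Aoc1 did so only through the knockout arrays. In a bulk measurement, a higher level in each cell and a larger share of cells with the transcript cannot be told apart. Background adds to every intensity, which lowers folds between dim and bright signals. After the reference median was subtracted from each array, with wild-type values no lower than the reference's 95th percentile, the fold became 13.4 for Kcnip3, 12.6 for Tm4sf5, 10.7 for Pnkd, 10.4 for Dscam, 8.63 for Tex35 and 5.03 for Aoc1. These folds depend on the reference median taken as background, and for genes at the floor on the floor too (both wild-type arrays for Kcnip3, Tex35 and Aoc1, 1 array for Pnkd and Dscam).

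As dim in wild type as the brightest of the 6 (a mean of at most 132) were 11370 genes, 57.0% of all. Of those, 9 had a rise at least as large as that of Dscam, the smallest of the 6. They were the 6 genes and Scin, Ccl3 and Car1. Scin, an actin-severing protein, read 51.8 and 56.6 in wild type, against 610 and 466 in the knockout. Car1, a carbonic anhydrase, had a wild-type mean of 88.8 ± 8.83 and read 868 and 422 in the knockout, and was thus lower on knockout replicate 2, the reverse of Kcnip3. Just outside was Gzmk, a granzyme gene, with a log2 fold change of 2.56, followed by Sspo with 2.33. Among the same 11370 genes a log2 difference of at least 1 was seen upward in 44 and downward in 1; signals this close to background have little room to fall.

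The genes most like each of the 6 were sought by the Euclidean distance between log2 values centred on the wild-type mean, over the 4 arrays. Aoc1 lay closest to Ccl5, an inflammatory chemokine gene, at a distance of 0.13, and to Gzmk and Dscam, both at 0.17. Pnkd lay closest to Gzmk (0.19), Aoc1 (0.21) and Ccl5 (0.21), and Dscam to Aoc1 (0.17), Ccl5 (0.27) and the chemokine gene Ccl1 (0.28). Tex35 was nearest to Scin (0.27), Ccl3 (0.44) and Tm4sf5 (0.54), and Tm4sf5 to Pnkd (0.52), Tex35 (0.54) and Ccl3 (0.64). Kcnip3 had no close companion, with Tex35 at 1.14, Scin at 1.24 and Tm4sf5 at 1.30. With 4 arrays in 2 groups, such distances mostly compare sizes of difference, and nothing about shared control follows from them.

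Neighbouring genes on the chromosome were measured next, the 3 nearest protein-coding genes on each side in the RefSeq gene table. Of 36 neighbours 34 were measured and 26 were bright enough to test. With limma at an adjusted p under 0.05, 4 of the 26 were higher (15.4%) and 1 was lower, against 4.79% of all 13956 genes higher and 3.50% lower. The higher ones lay beside 3 of the 6 genes. Bace2, an aspartyl protease next to Dscam, read 59.2 and 51.7 in wild type, against 143 and 135 in the knockout (log2 fold change 1.31, limma adjusted p = 2.42e-12). With a wild-type mean of 55.5, it passed the filter on low values only through the knockout arrays. Its call and its place among the 26 therefore both depend on its rise. Tmbim1, a membrane protein gene of the Bax-inhibitor family whose annotated span overlaps that of Pnkd, read 138 and 127 against 295 and 269 (1.09, adjusted p = 1.78e-08). On the side of Aoc1 lay Tmem176a and Tmem176b, a pair of related membrane protein genes. Tmem176a read 135 and 126 against 285 and 291 (1.14, adjusted p = 2.76e-09), and Tmem176b 175 and 167 against 305 and 297 (0.81, adjusted p = 7.16e-05). In each of these 4 the groups did not overlap, and all 4 remained called when any 1 array was left out. Ralgps2, near Tex35, read 298 and 271 against 210 and 190 (log2 fold change -0.51, adjusted p = 0.0368) and lost its call when either wild-type array or knockout replicate 2 was left out (adjusted p-values up to 0.537). It also lost it with quantile normalization (adjusted p = 0.0509), median scaling (0.0620) and the replicate number as a block (0.0551).

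No tested neighbour of Kcnip3 or Tm4sf5 passed, and the median log2 fold change of the 34 was -0.06. Aamp, which also overlaps Pnkd, read 267 and 207 in wild type, against 225 and 240 in the knockout, and Gm7932, the gene directly between the Tmem176 pair and Aoc1, read 100.2 and 109 against 91.7 and 97.4. Because Tmbim1 and Pnkd overlap, whether a probe set of one picks up transcripts of the other was not tested.

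**Figure D4:**
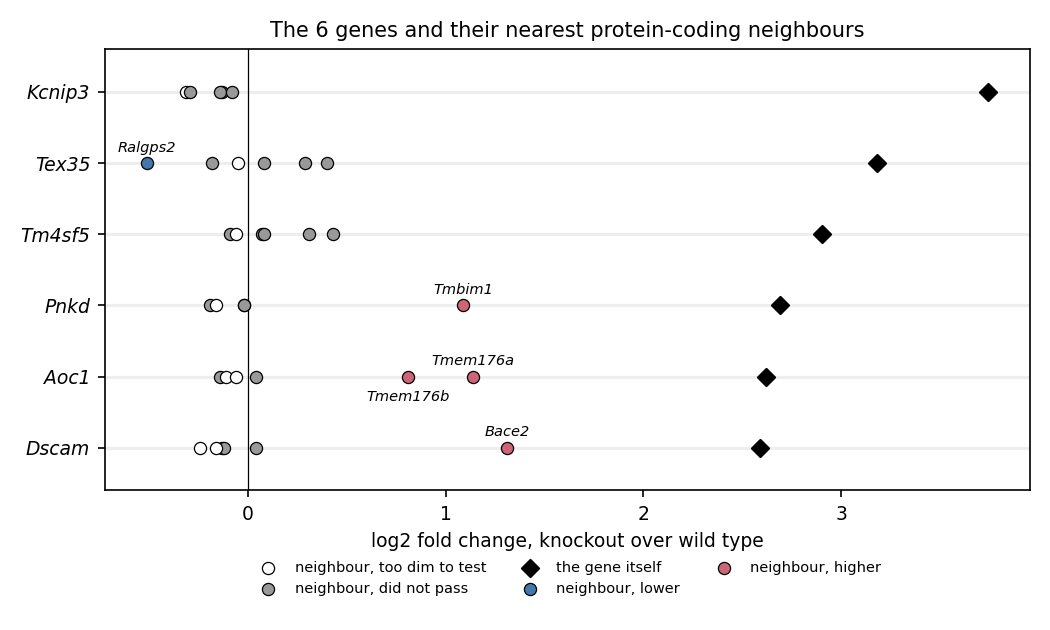
Log2 fold change, knockout over wild type, of the 6 genes (black diamonds) and of their measured nearest protein-coding neighbours (circles; red higher and blue lower with limma, grey did not pass, white too dim to test). Bace2, Tmbim1, Tmem176a and Tmem176b lie between 0.81 and 1.31, and the gene at the head of each row between 2.59 and 3.74.

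Genes related to the 6 by family, pathway or tissue were called about as often as genes in general. Of 118 related genes measured in 11 lists, 67 were bright enough to test. With limma 5 were higher and 0 lower, so that 7.46% were called, against 8.30% of all genes in either direction (4.79% higher and 3.50% lower). At an unadjusted p under 0.05, 7 were higher and 6 lower. The share of all genes at that unadjusted threshold is not given here. These counts, and the unadjusted counts of single lists below, therefore cannot be read as many or few. Their median log2 fold change was 0.02, against -0.02 over all genes tested. The 5 were Odc1, Il4, Ifng, Tex15 and Hpcal1. With wild-type replicate 1 left out 3 related genes were called higher, with wild-type replicate 2 left out 2, and 1 was called lower when either knockout array was left out.

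For Kcnip3, the other KChIP and Kv4 genes gave 0 calls among 3 tested (1 at an unadjusted p under 0.05, Kcnd1). With a wild-type mean of 69.0, Kcnd1 passed the filter on low values only through the knockout arrays. The brightest, the Kv4.3 gene Kcnd3, read 180 and 218 in wild type, against 186 and 209 in the knockout. The gamma-secretase partners of Kcnip3 gave 0 calls among 5, with none at an unadjusted p under 0.05. Among other neuronal calcium sensors 1 of 4 was higher: Hpcal1 read 361 and 301 against 503 and 508 (log2 fold change 0.62, limma adjusted p = 0.00624) and was not called without wild-type replicate 2 (adjusted p = 0.366). Of 6 tested genes reported as repressed by DREAM, 2 were higher and 0 lower (3 and 1 at an unadjusted p under 0.05). The interleukin-4 gene Il4 read 96.5 and 96.3 in wild type, against 195 and 159 in the knockout (log2 fold change 0.86, adjusted p = 2.14e-05). The interferon-gamma gene Ifng read 153 and 149 against 280 and 194 (0.63, adjusted p = 0.00491) and lost its call when either wild-type array or knockout replicate 1 was left out, with adjusted p-values up to 0.168. Tnfaip3, the gene of the NF-kB inhibitor A20, read 984 and 1017 against 1690 and 1137 and did not pass (adjusted p = 0.0621), and Fos, an immediate early gene, read 780 and 804 against 830 and 457. Pdyn was too dim to test, and Il2 and Slc8a3 did not pass.

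For Aoc1, Odc1 was the only call among 6 polyamine genes tested. It encodes ornithine decarboxylase, which makes the putrescine that diamine oxidase degrades. Odc1 read 465 and 432 in wild type, against 1017 and 819 in the knockout (log2 fold change 1.03, limma adjusted p = 1.48e-07). Srm and Sat1, later steps of polyamine synthesis and breakdown, read 686 and 634 against 431 and 568, and 509 and 504 against 440 and 399, and did not pass. The amine oxidase and histamine list gave 0 calls among 5 tested (1 lower at an unadjusted p under 0.05). Its brightest member, the histamine receptor gene Hrh1, read 607 and 587 against 512 and 549.

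For Dscam, 0 of 6 tested genes of its family and of netrin signalling passed, with 0 at an unadjusted p under 0.05. For Tm4sf5 the same held for 3 tested L6-family genes. For Pnkd, 0 of 6 tested glyoxalase and metallo-beta-lactamase genes passed, with 2 lower at an unadjusted p under 0.05; Glo1, glyoxalase 1, read 272 and 259 against 237 and 202. For Tex35, 1 of 10 tested germ cell genes was higher, and the same gene was the only call among 16 other genes named Tex with a number. This was Tex15, needed for meiosis in male germ cells, which read 75.0 and 84.9 against 121 and 128 (log2 fold change 0.63, limma adjusted p = 0.00436), about the reference's upper edge, and was not called without either wild-type array, with adjusted p-values up to 0.300. The protamine genes Prm1 and Prm2 did not pass, with Prm2 at 158 and 181 against 136 and 176.

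**Figure D5:**
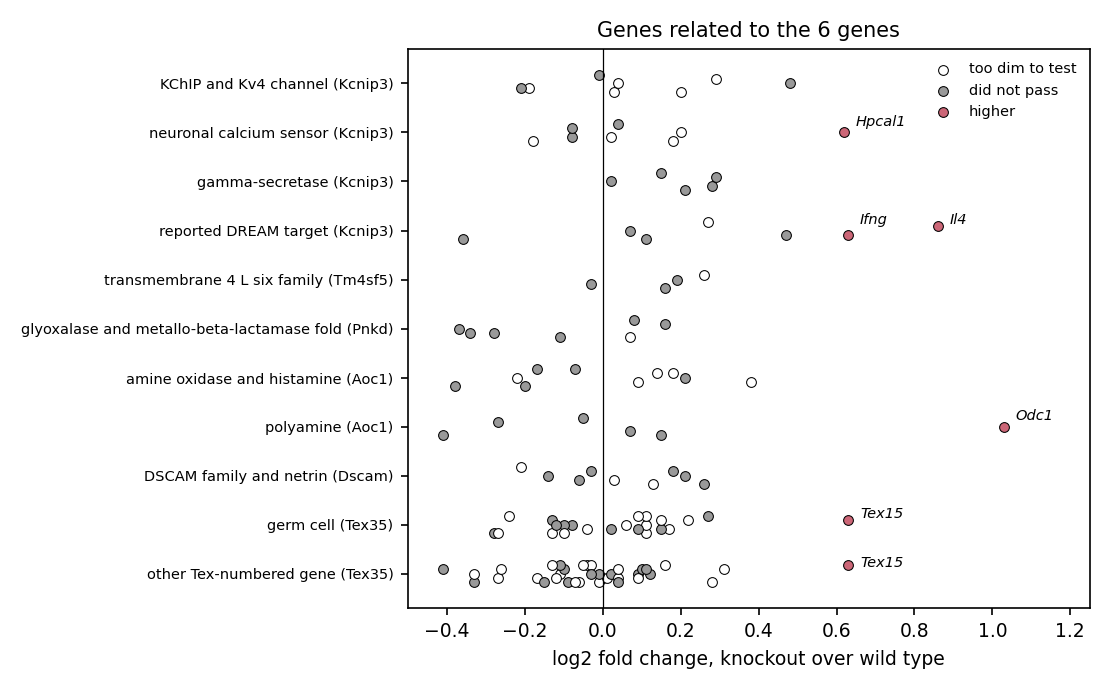
Log2 fold change, knockout over wild type, of the measured genes in the 11 related lists, with the gene each list belongs to in parentheses. Red circles are higher with limma, grey did not pass and white were too dim to test; points are spread vertically for legibility, and Tex15 stands in 2 lists.

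Marker genes of tissues in which the 6 are known were counted against the same shares, 4.79% of all genes higher and 3.50% lower, though the lists are too short for a share to say much. Of 10 neuron markers, 3 read above the reference's 95th percentile on both wild-type arrays and 0 on both knockout arrays, and of 6 tested 0 were higher and 1 was lower, the synaptic vesicle gene Syp (log2 fold change -0.58, limma adjusted p = 0.0125). The list's summed intensity was 901 and 1026 in wild type, against 975 and 915 in the knockout. Of 10 intestinal epithelium markers, 1 read above that percentile on both wild-type arrays and 0 on both knockout arrays, and 0 of 5 tested passed (1 higher at an unadjusted p under 0.05). The sum was 725 and 779 against 835 and 740. Part of the fall in both counts was narrow. On knockout replicate 2, where the percentile was 125.4, the neuron gene Rbfox3 read 125.0 and the intestinal gene Krt18 123.8. Their log2 fold changes were -0.08 and -0.02. The neuron genes Tubb3 and Syp missed it by more. The germ cell list summed to 1880 and 2008 against 1924 and 2021. Mast cell and basophil markers, chosen for their part in histamine biology, summed to 617 and 599 against 639 and 631. Kit was the only call among 4 tested (higher, log2 fold change 0.59, limma adjusted p = 0.00926). With a wild-type mean of 70.9, Kit passed the filter on low values only through the knockout arrays, so its call depends on its rise. Of the 8 markers, 0 read above the reference's 95th percentile on both arrays of either group. Macrophage markers moved the other way, with 10 of 11 tested lower and 1 higher, the TAM receptor gene Axl, and 3 of 12 above that percentile on both knockout arrays against 10 on both wild-type arrays. The part of that fall in the differences of the 6 genes was not tested.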

How the data were processed

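Per the labels' protocols, RNA of the sorted cells was made into biotinylated cRNA in the usual Affymetrix way. Each deposited value is the linear intensity of 1 probe set on 1 array; the software behind it is not given in the sources. Probe sets were named with the platform annotation of GEO; of 35557, 21789 had exactly 1 symbol. Intensities were converted to log2(value + 1). Each gene kept its brightest probe set by mean. Genes past the 30th percentile (mean log2 value) entered limma 3.58.1 (lmFit, eBayes; R 4.3.3), knockout against wild type, with Benjamini-Hochberg adjustment over 13956 genes and a threshold of 0.05. Each adjusted p is from that fit unless another setting or a left-out array is named with it. The p-values of that fit rest on a single variance pooled over all genes tested. They therefore follow the size of a difference and do not measure the spread of a gene's own arrays. The labels do not say whether that spread is technical. Named genes were the 6, Cyld, the called and brightest genes of each list, the 3 nearest genes by distance, the comparably dim and raised genes, and called chromosomal neighbours. Kcnd1, Aamp, Gm7932, Tnfaip3, Fos, Aurkb, Eif2s3y, Uty, Kdm5d, Xist, Rbfox3, Tubb3, Krt18, Il2ra, Cd4 and Sspo were added after their values were seen. The members and lists were chosen with earlier results of these data known. RefSeq promoter windows were matched by symbol for all 6 genes.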

Additional observations from a re-analysis of the deposited data

How the results depend on the processing

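Pooling the variance over all genes makes the calls possible. With no pooling, 0 genes were higher and 0 lower, related genes included; 1814 genes had an unadjusted p under 0.05, and the smallest adjusted p was 0.208. Against 669 higher and 489 lower genes, leaving out 1 array gave 252 to 918 higher and 118 to 767 lower, and among related genes 2 to 6 higher and 0 to 1 lower. With the replicate number as a block, 603 genes were higher and 429 lower, and 5 related genes were higher and 0 lower. Same-numbered replicates did not deviate together (r = -0.0923 across genes). With a single replicate gap in each group, this cannot decide whether the numbers pair samples, and the labels do not say. The main fit took the arrays as unpaired. The log2 fold changes of the 6 genes kept their sign in all 9 alternatives run for each. They ranged over 3.19 to 4.28 for Kcnip3 (without either knockout array), 2.92 to 3.24 for Tex35, 2.69 to 3.65 for Tm4sf5, 2.33 to 2.75 for Aoc1, 2.42 to 3.37 for Dscam and 1.34 to 3.41 for Pnkd, lowest with its probe sets averaged. Signals near background limit what the wild-type levels and the 51 untested related genes can show.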
